A study of Homo sapiens with 2 samples.

Results

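Cytosolic DNA sensing was followed through 6 human genes, CGAS, STING1, IFI16, AIM2, ZBP1 and TREX1, in Huh-7 cells with and without interferon-alpha. Members were the probe sets annotated to 1 of these genes and to no other gene, with older aliases updated by gene ID. The rule found 11 of the 54675 probe sets on the array, 3 each for CGAS and IFI16, 2 each for STING1 and ZBP1 and 1 for AIM2. TREX1 had none, because each of the 3 probe sets that name it also names ATRIP. Huh-7 is an established human hepatoma line. Interferon-alpha 2b, a recombinant protein, was added to the treated flask in fresh medium at 100 U/mL, and the cells were exposed for 6 hours. The untreated flask received only fresh medium, and the sources used here do not give its time of harvest. Each condition was 1 culture on 1 Affymetrix array, so no difference below has a replicate check and no test could be made.

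DNA in the cytosol is a sign of infection or damage. The enzyme cGAS binds it and makes the cyclic dinucleotide cGAMP, which activates STING on the endoplasmic reticulum. STING then recruits the kinase TBK1, which phosphorylates the transcription factor IRF3 and so switches on type I interferon. IFI16 and AIM2 carry DNA-binding HIN domains, and AIM2 nucleates an inflammasome through the adaptor PYCARD and caspase-1. ZBP1 binds Z-form nucleic acids and engages RIPK3, and TREX1 is a nuclease that degrades cytosolic DNA. Several of these genes are themselves interferon-inducible in many cell types, and hepatocytes have been described as low in STING.

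STING1 and ZBP1, the members above the background floor set here, were not 2-fold changed on the interferon array, and IFI16, CGAS and AIM2 stayed under that floor. Over all 13269 genes that were counted, 57 (0.43%) were at least 2-fold higher and 0 (0%) were at least 2-fold lower. Counted genes are those above an intensity of 48.46, the 50th percentile of both arrays together, on at least 1 array with the brightest of their probe sets. This floor stands in for detection calls, which were not used here, and a reading below it does not show that a transcript is missing. CGAS, IFI16 and AIM2 lay under the floor in every probe set and on both arrays, so they had no ratio. STING1 and ZBP1 were above it on both arrays with 1 probe set each. Of all 19775 genes with a probe set of their own, 32.9% lay under the floor on both arrays. The count of 3 in 5 members is given beside that share with no test.

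**Figure D1:**
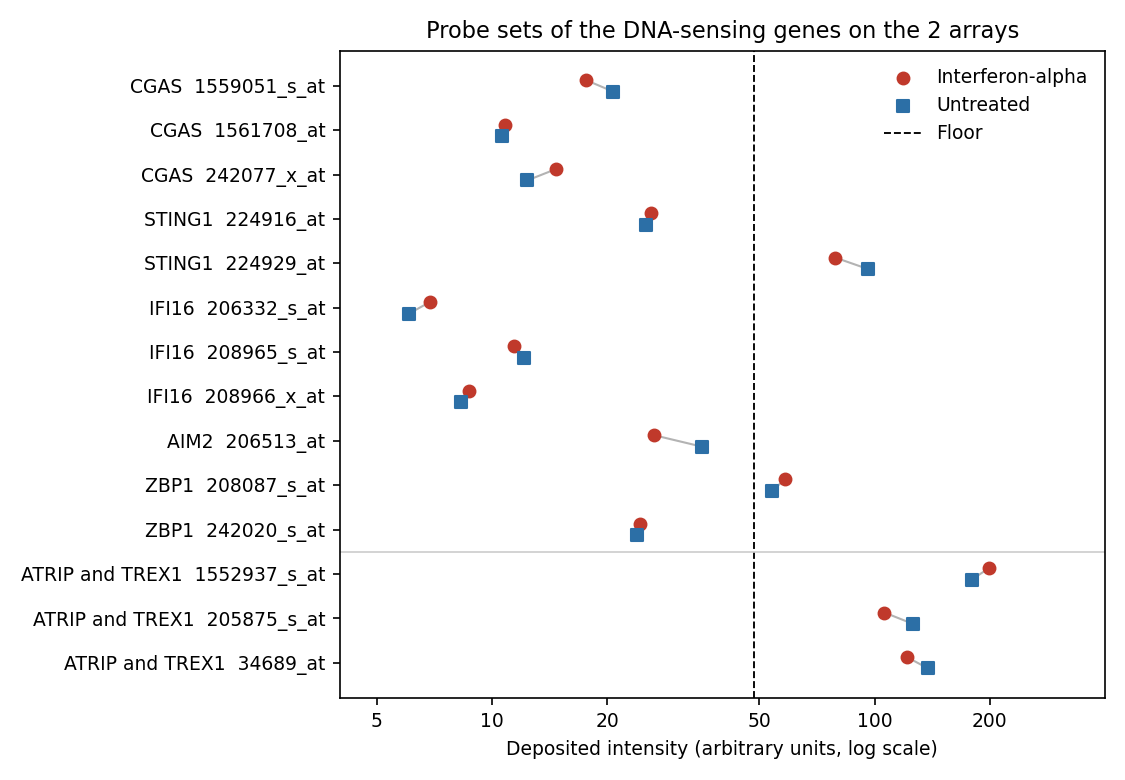
Deposited intensity (log axis) of each of the 11 probe sets, with the interferon-alpha array as circles and the untreated array as squares, the floor of 48.46 as a dashed line and the 3 probe sets shared by ATRIP and TREX1 below the grey line. 9 of the 11 probe sets lie left of the floor on both arrays, and the largest distance between the arrays is 17.39 intensity units, for STING1. By the definition of the floor, 50% of all values other than controls lie left of it.

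Stretches of promoter from RefSeq (GRCh38.p14) are shown for AIM2 and IFI16, which stayed under the floor with interferon, and for ISG15, an interferon-responsive gene that was 23.7-fold higher, as a contrast. Each is the 250 bases before an annotated start, 5′ to 3′ on the gene's own strand, and capitals mark matches on either strand to the core of the interferon-stimulated response element that ISGF3 binds, spelled GAAA, any pair of bases, GAAA. IFI16 has 2 entries.
AIM2, chr1:159076767-159077016 (- strand): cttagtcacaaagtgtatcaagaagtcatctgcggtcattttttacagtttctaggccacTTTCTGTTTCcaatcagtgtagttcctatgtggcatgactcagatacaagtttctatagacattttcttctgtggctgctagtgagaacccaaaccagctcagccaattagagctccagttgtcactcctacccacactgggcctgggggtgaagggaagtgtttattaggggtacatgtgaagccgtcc
IFI16, first entry, chr1:159008741-159008990 (+ strand): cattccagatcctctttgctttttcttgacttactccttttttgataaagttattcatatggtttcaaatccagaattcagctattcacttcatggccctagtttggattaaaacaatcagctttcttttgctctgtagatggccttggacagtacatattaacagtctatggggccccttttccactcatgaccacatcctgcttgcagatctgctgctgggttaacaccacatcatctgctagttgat
IFI16, second entry, chr1:159009657-159009906 (+ strand): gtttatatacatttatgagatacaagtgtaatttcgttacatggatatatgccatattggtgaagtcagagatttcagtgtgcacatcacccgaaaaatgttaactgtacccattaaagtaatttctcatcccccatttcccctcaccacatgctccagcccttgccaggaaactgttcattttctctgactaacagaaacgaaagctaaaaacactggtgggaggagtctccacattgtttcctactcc
ISG15, chr1:1013247-1013496 (+ strand): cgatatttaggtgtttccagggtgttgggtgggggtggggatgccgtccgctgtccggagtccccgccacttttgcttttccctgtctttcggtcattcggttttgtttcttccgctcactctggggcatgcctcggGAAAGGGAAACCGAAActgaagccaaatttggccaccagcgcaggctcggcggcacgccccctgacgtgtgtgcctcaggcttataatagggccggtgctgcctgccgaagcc
The AIM2 stretch held 1 match, on the reverse strand, from 190 to 181 bases before the start. ISG15 held 2 matches, which overlap by a few bases, from 113 to 104 and from 107 to 98 bases before the start. Neither IFI16 stretch held a match, and the stretch before TREX1 held none. Other genes searched went both ways. The stretch before IRF9, which was 20.1-fold higher, held no match to this core, and that before MNDA, which was under the floor, held 1. The IFIT1 stretch and each IFIT3 stretch held 2, and the PYHIN1 stretch held none. The palindromic GAS motif (TTC, any NNN, GAA), which STAT dimers bind, was in 0 of the 4 member stretches. Outside the members, the IRF9 stretch held 1 GAS match, from 63 to 55 bases before the start. The first of the CASP8 stretches also held 1, and the remaining stretches searched held none. Among all 35116 promoter entries, 3.02% held the response element core and 6.57% held the GAS motif within the same length. A match is a run of letters, and nothing was measured at these positions. CGAS, STING1 and ZBP1 are named only.

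IFI16, a nuclear and cytosolic DNA sensor named for its induction by interferon-gamma, was the dimmest member. Its probe set 206332_s_at read 6.88 on the interferon array and 6.07 on the untreated array. Only 303 of the 54613 probe sets other than controls were dimmer than that on the interferon array, and 9 on the untreated array. Probe set 208965_s_at read 11.43 with interferon and 12.13 untreated, and 208966_x_at read 8.69 with interferon and 8.31 untreated. All 3 IFI16 probe sets were therefore far below the floor on both arrays, and they differed in sign. Summed over the 3 probe sets, IFI16 had 27.0 intensity units with interferon and 26.51 untreated. The lowest intensities of any probe set other than controls were 5.74 on the interferon array and 5.63 on the untreated array.

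AIM2, the inflammasome-forming sensor, had 1 probe set, 206513_at, which read 26.43 with interferon and 35.32 untreated. This places it at percentile 35.7 of all probe sets on the interferon array and at percentile 42.2 on the untreated array. Both readings were below the floor, and no fold is given. AIM2 and IFI16 lie in a cluster of related genes on chromosome 1, where RefSeq places MNDA, PYHIN1, PYDC5, IFI16 and AIM2 next to each other among protein-coding genes. MNDA, a myeloid nuclear protein, read 11.54 with interferon and 14.62 untreated. PYHIN1 had readings of 7.31 and 13.86 with interferon, against 6.54 and 15.09 untreated. PYDC5 had no probe set of its own. All 7 probe sets of these 4 HIN-domain genes lay under the floor in both conditions, and AIM2 was the brightest of them. By definition, 50% of all values other than controls lie under that floor.

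CGAS, which encodes the DNA-binding cGAMP synthase, was below the floor in all 3 probe sets. The probe set 1559051_s_at read 17.62 with interferon and 20.76 untreated, 1561708_at read 10.83 with interferon and 10.61 untreated, and 242077_x_at read 14.73 with interferon and 12.36 untreated. The sum over the 3 was 43.18 intensity units with interferon and 43.73 untreated. One CGAS probe set was dimmer and the others brighter on the interferon array, by at most 3.14 intensity units. A rise like that of IFIT1, which binds foreign RNA and started from a similarly dim reading, did not appear. IFIT1 had 3124.53 with interferon and 25.28 untreated, the highest log2 ratio of any counted gene. Not every gene that started so dim rose that far: CXCL10 had 57.84 with interferon and 24.41 untreated. A smaller rise that remained under the floor would not be detectable with these values.

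**Figure D2:**
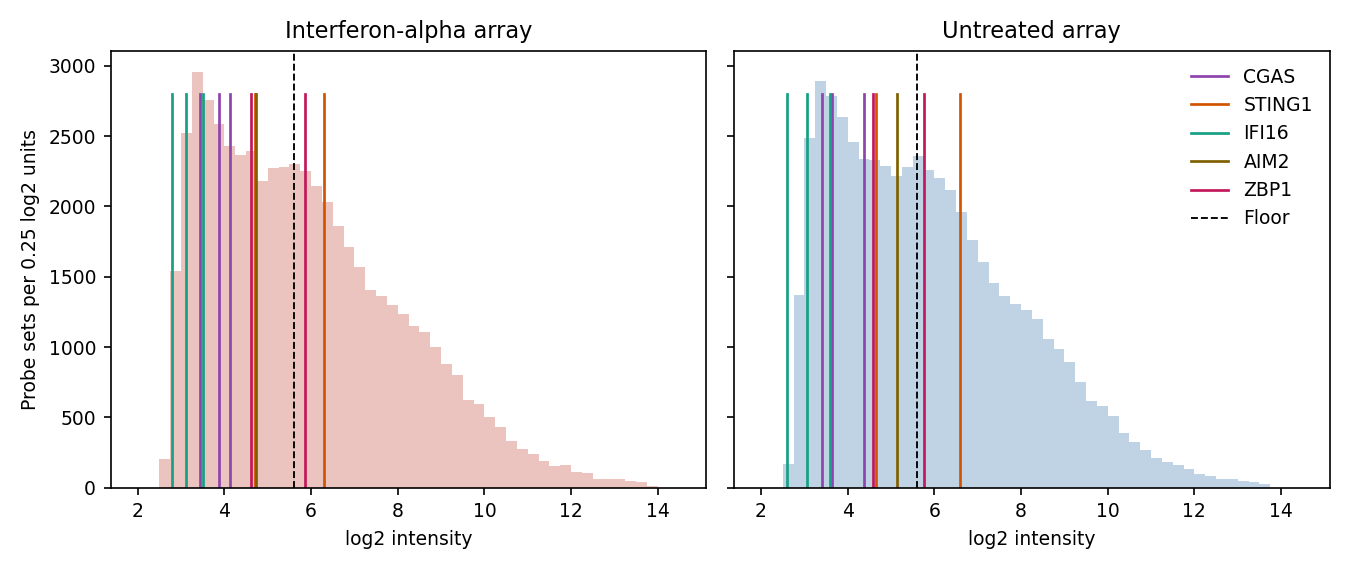
Histograms of log2 intensity over the probe sets other than controls on the interferon-alpha array (left) and the untreated array (right), with a vertical line for each member probe set and a dashed line at the floor. IFI16 lies at the dim edge of both histograms, and only 1 STING1 line and 1 ZBP1 line stand right of the floor.

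STING1, the adaptor that receives cGAMP, was the brightest member. Its probe set 224929_at read 78.94 on the interferon array and 96.33 on the untreated array, a log2 ratio of -0.29 or 1.22-fold lower. Its ratio was at percentile 2.63 among 12742 genes measured above the floor in both conditions, whose central 95% ran from -0.29 to 0.30, so it was at the lower edge of that range. A range for like brightness came from 3247 single-gene probe sets with a mean log2 intensity within 0.25 of this one, taken without the floor. Their central 95% ran from -0.37 to 0.39, and STING1 lay inside that range. These ranges are unlike, since the one over genes takes 1 probe set per gene above the floor on both arrays. The other STING1 probe set, 224916_at, was below the floor, with 26.05 on the interferon array and 25.22 on the untreated array. The lower reading thus rests on 1 of 2 probe sets. In RNA from a whole culture, fewer expressing cells and less RNA per cell cannot be told apart. Centring the arrays on the hybridisation controls, which were themselves brighter on the interferon array by a median log2 ratio of 0.427, moved the STING1 log2 ratio to -0.71.

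ZBP1, the Z-form nucleic acid sensor, stood just above the floor. Its probe sets were matched by gene ID, since the RNA-binding protein gene IGF2BP1 carries the same alias. Its probe set 208087_s_at read 58.27 with interferon and 53.91 untreated, a log2 ratio of 0.11 or 1.08-fold higher. The probe set 242020_s_at read 24.37 with interferon and 23.95 untreated, below the floor. The ratio was at percentile 72.9 of the same 12742 genes and inside the range of -0.42 to 0.38 for 3439 probe sets of like brightness. With centring on the hybridisation controls it was -0.32, so its sign depended on the scaling. Both ZBP1 probe sets end in _s_at, a suffix of this array type for probes that can match more than 1 transcript.

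The nearest genes to STING1 by distance over the log2 intensities of the 2 arrays were NTN5 (78.32 with interferon, 96.47 untreated), SLC30A2 (78.83 with interferon, 95.13 untreated) and DTX1 (78.81 with interferon, 97.56 untreated). Those nearest to ZBP1 were NRDE2, ELAC1 and LINC02256, all within a distance of 0.0126. Over 2 arrays such likeness says only that the readings were close. Intensities depend on the probes of each set, and the order of the members from STING1 down to IFI16 is therefore an order of readings, not of transcript abundance.

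The 3 probe sets shared by ATRIP, a checkpoint protein, and its neighbour TREX1 were above the floor on both arrays but cannot be assigned to either gene. They read 199.17 (1552937_s_at), 106.1 (205875_s_at) and 121.36 (34689_at) with interferon, against 179.46, 126.35 and 137.93 untreated. Their log2 ratios were 0.15, -0.25 and -0.18, so 1 was brighter and 2 were dimmer with interferon. They entered no count of members.

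Known interferon-responsive genes were much higher on the same array. ISG15, a ubiquitin-like modifier, had 8331.72 with interferon and 351.17 untreated, or 23.7-fold higher. IRF9, the DNA-binding part of ISGF3, had 2143.05 with interferon and 106.66 untreated, or 20.1-fold higher. MX1, an antiviral GTPase, had 818.24 with interferon and 43.99 untreated, which is at least 16.9-fold higher because the untreated reading was below the floor. Of 10 hepatocyte and hepatoma markers, 8 had a probe set and all 8 were above the floor, between 3222.52 and 14587.7 with interferon and between 2999.92 and 12212.3 untreated. The leukocyte markers PTPRC (16.96 with interferon, 19.23 untreated) and CD3E (22.11 with interferon, 21.83 untreated) were below it. Among the 8 leukocyte markers with a probe set 6 were counted. All 8 together had a sum of 2795.5 with interferon and 2657.8 untreated, most of it from LYZ (2271.18 with interferon, 2064.14 untreated). Of 5 endothelial markers 2 were counted, and of 5 stellate and fibroblast markers 3, with 0 past 2-fold. Beside these marker counts, 13269 of all 19775 genes were counted.

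Around the 6 members, most genes of the wider pathway were above the floor and close to their untreated reading. In 8 lists covering 119 other genes, 114 had a probe set and 97 were counted, of which 7 (7.22%) were at least 2-fold higher and 0 were lower, beside 0.43% and 0% of all counted genes. The median log2 ratio of the 97 was 0.06, against 0.04 for every gene measured above the floor in both conditions. These sets are unlike, since the 97 include genes above the floor on only 1 array, taken at their bound. Leaving out the list of output genes, 3 of 91 (3.3%) reached a 2-fold rise. Below the floor on both arrays were 17 of the 114 (14.9%). The lists were drawn up with earlier results of these data known, so their counts are a description.

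**Figure D3:**
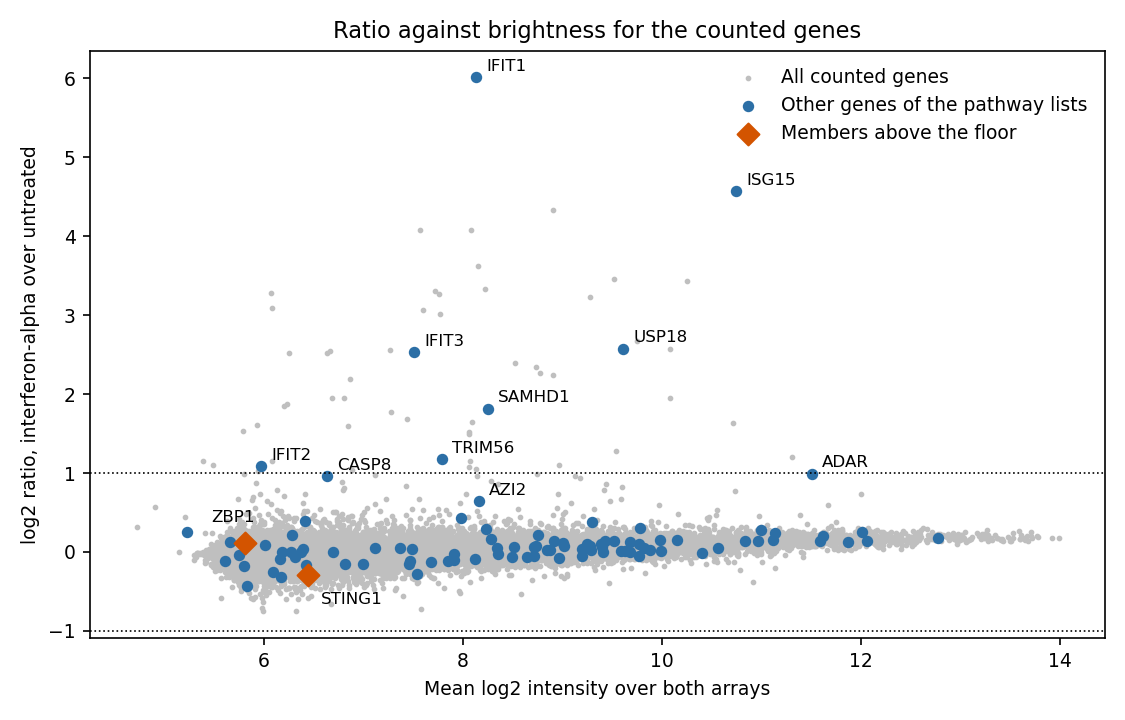
The log2 ratio of interferon-alpha over untreated (vertical axis) against mean log2 intensity (horizontal axis) for 13269 counted genes in grey, with genes of the pathway lists in blue and STING1 and ZBP1 as orange diamonds. Dotted lines mark 2-fold, and both diamonds lie within the grey band while SAMHD1, TRIM56, USP18, ISG15 and the IFIT genes lie above the upper line.

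Of the nucleases and other factors that limit self DNA, 9 of 11 with a probe set were counted, and DNASE1L3 and RNASEH2B stayed under the floor. SAMHD1, a dNTP hydrolase, had 570.64 with interferon and 162.19 untreated, 3.52-fold higher, and it was the 1 member of 9 counted that passed 2-fold. Of its 5 counted probe sets 4 passed 2-fold, and the remaining one, at 85.98 with interferon and 24.87 untreated, had a lower bound of 0.83 on the log2 scale because its untreated reading was under the floor. The list's median log2 ratio was 0.05. ADAR, the RNA-editing enzyme, was at 1.99-fold with 4093.06 with interferon and 2057.08 untreated, just under the threshold. It is named here after its value was seen.

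The other proposed DNA sensors and co-sensors were all counted, 20 of 20, and 0 passed 2-fold in either direction. The brightest on the untreated array were HMGB1, a chromatin protein that acts as a danger signal when released, with 7438.1 with interferon and 6557.6 untreated, and XRCC6, the Ku70 end-binding subunit, with a log2 ratio of 0.14. HNRNPA2B1, an RNA-binding protein proposed as a nuclear sensor of viral DNA, followed with a log2 ratio of 0.25. Log2 ratios of the list ran from -0.12 to 0.38 with a median of 0.14. MRE11, of the break-repair nuclease complex, had the same value of 103.93 on both arrays.

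Genes that degrade or carry cGAMP had 9 of 10 members counted and 0 past 2-fold. The gap junction gene GJA1 read 2241.3 with interferon and 1854.8 untreated, a log2 ratio of 0.27. LRRC8A, the obligate subunit of volume-regulated anion channels, had a log2 ratio of 0.06, and ENPP1, the hydrolase that breaks cGAMP down, had 0.15. The list's median was 0.01.

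Of the genes for STING trafficking and ubiquitination, 24 of 26 with a probe set were counted and 2 were at least 2-fold higher. TRIM56, a ubiquitin ligase reported to act on STING and cGAS, had 332.65 with interferon and 147.63 untreated, 2.25-fold higher, with its other probe set at a log2 ratio of 0.72. USP18, an ISG15 protease also reported to recruit a deubiquitinase to STING, was 5.96-fold higher, with 1908.39 with interferon and 320.25 untreated. The other 22 lay between -0.28 and 0.24. RNF5, a ligase that targets STING, and NLRC3 stayed under the floor.

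Kinases and transcription factors downstream of STING had 13 of 14 members counted and 0 past 2-fold, with a median log2 ratio of 0.07. IRF3 read 856.08 with interferon and 782.57 untreated, a log2 ratio of 0.13. The adaptor TANK and the kinase MAP3K7 had log2 ratios of 0.06 and 0.07. TBK1, the kinase that STING recruits, read 374.96 with interferon and 358.36 untreated. AZI2, a TBK1-binding adaptor and the highest of the list, was at 1.57-fold, and its 4 counted probe sets ran from a log2 ratio of 0.26 to 0.78. IRF7 stayed under the floor, at 39.85 with interferon and 41.1 untreated. TBK1 and AZI2 are named after their values were seen.

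**Figure D4:**
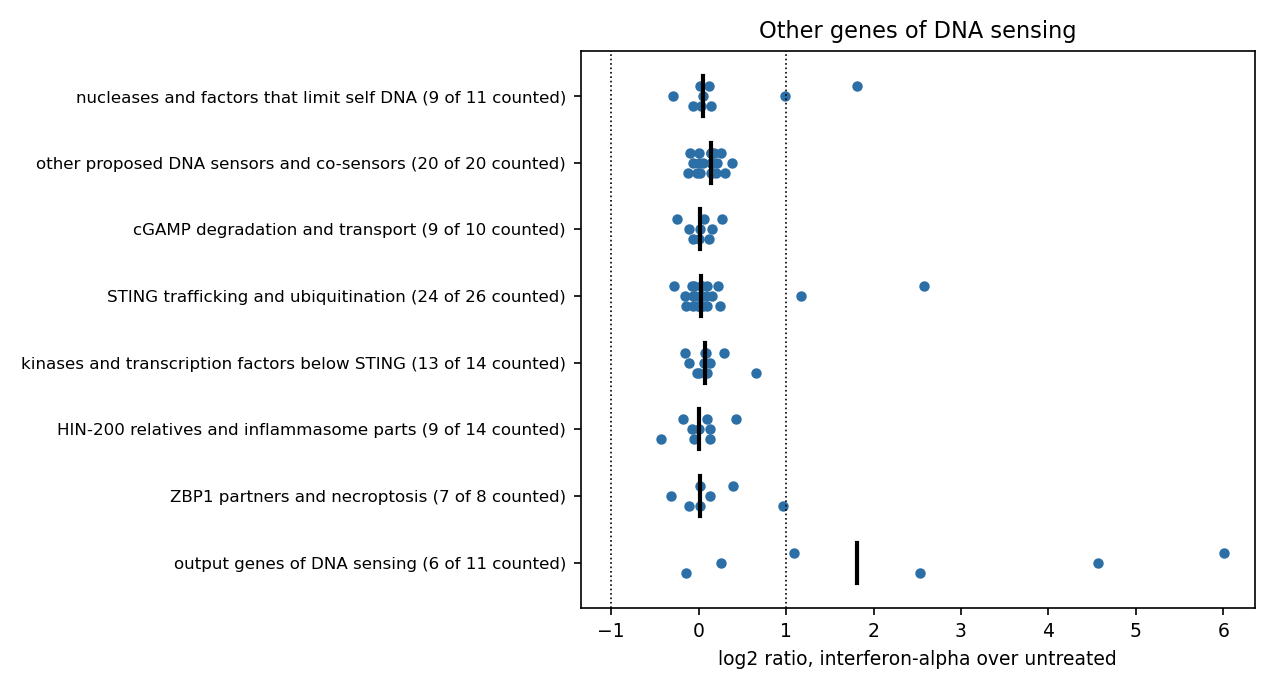
The log2 ratio of interferon-alpha over untreated (horizontal axis) for each counted gene of the 8 pathway lists (rows), with a black bar at each list's median and dotted lines at 2-fold. 7 lists have medians between 0.00 and 0.14, and the list of output genes has a median of 1.81 over 6 counted genes.

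Of the HIN-200 relatives and inflammasome parts, 9 of 14 with a probe set were counted and 0 passed 2-fold, with a median log2 ratio of 0.00. NINJ1, which drives membrane rupture, and GSDMD, the pore former, had log2 ratios of -0.05 and 0.13. CASP4, a caspase that senses lipopolysaccharide, read 292.7 with interferon and 217.6 untreated, a log2 ratio of 0.43. The adaptor and the caspase of the AIM2 inflammasome were near the floor. PYCARD read 52.5 with interferon and 59.34 untreated. CASP1 read 69.8 with interferon and 74.0 untreated, with 4 of its 5 probe sets below the floor. IL18 had 72.65 on both arrays. MNDA, PYHIN1 and CASP5 were among the 5 below the floor.

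ZBP1 partners and necroptosis genes had 7 of 8 members counted and 0 past 2-fold, with a median log2 ratio of 0.02. FADD, the death-domain adaptor, CASP6 and CFLAR, an inhibitor of caspase-8, had log2 ratios of 0.13, 0.02 and 0.02. RIPK3, the kinase that ZBP1 engages, read 64.7 with interferon and 80.6 untreated, a log2 ratio of -0.32. MLKL, the executioner of necroptosis, stayed under the floor, at 47.2 with interferon and 33.02 untreated. CASP8 was just under the threshold at 1.94-fold, with 138.37 with interferon and 71.3 untreated, and its other counted probe set had a log2 ratio of 0.32. RIPK3, CASP8, PYCARD, CASP1 and IL18 are named after their values were seen.

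Among output genes of DNA sensing, the members that passed 2-fold were interferon-stimulated genes, which interferon-alpha can induce through its own receptor. The route of the rises here was not tested. Of 6 counted, 4 were at least 2-fold higher, namely ISG15, IFIT1, IFIT2 and IFIT3. IFIT3 was 5.79-fold higher, and its other probe set had a log2 ratio of at least 3.83, with 688.47 with interferon and 12.61 untreated. IFIT2 was at least 2.13-fold higher, and its other probe set had a log2 ratio of at least 0.82, with 85.48 with interferon and 23.68 untreated. The interferon genes IFNB1 (20.68 with interferon, 22.97 untreated), IFNL1 (40.84 with interferon, 43.52 untreated) and IFNL2 (16.32 with interferon, 18.14 untreated) all stayed under the floor, as did TNF and IL6. The chemokine gene CXCL10 read 57.84 with interferon and 24.41 untreated, at least 1.19-fold higher, and CCL5, another chemokine gene, had a log2 ratio of -0.15. The list's median log2 ratio of 1.81 takes genes with an untreated reading under the floor at their bound.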

How the data were processed

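Biotinylated cRNA from 6 µg of total RNA of 1 interferon-treated and 1 untreated culture was hybridised to Affymetrix arrays, per the labels' protocols. The deposited intensities are linear, with a single value for each probe set on each array, and the authors made them with GCOS, per the submitters' processing notes. The sources used here give neither its version nor the background correction or scaling.

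The platform annotation named the probe sets, and RefSeq updated their symbols by gene ID. Of 54613 probe sets other than 62 controls, 41091 had 1 gene, 1801 several and 11721 none named. Values below the floor of 48.46 were raised to it before log2. Each gene was read by its brightest probe set (mean log2 over both arrays). Ratios are interferon over untreated. Python 3.11.15, pandas 2.3.3 and statsmodels 0.14.6 were used. The procedure was tested on simulated data, with changes set only in genes brighter on the untreated array than any member. That simulation does not show whether a change in such dim genes would be found. The members, lists and settings were chosen with earlier results of these data known. Named genes were the members, each list's genes past 2-fold or otherwise its 3 brightest, up to 3 of its genes under the floor in list order, and the nearest genes to each member. MRE11, CCL5, CXCL10, TNF and IL6, and LRRC8C and IKBKB among tied readings, were named after their values were seen. ISG15, IRF9, IFIT1 and MX1 were added for scale. RT-PCR values of the study were not used here. Alternatives changed the floor, the pseudocount, the scaling and the choice of probe set.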

Additional observations from a re-analysis of the deposited data

How the results depend on the processing

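In each of the 11 alternatives tried, 0 of the members with a value were at least 2-fold higher and 0 were at least 2-fold lower. Part of this was fixed in advance, since STING1 and ZBP1 have 1 probe set each above the floor. Taking the median over counted probe sets, or the probe set brightest untreated, could only return their ratios of -0.287 and 0.112. Genes of the pathway lists at least 2-fold higher numbered 7 as reported and 5 to 8 over the alternatives, and genes of the whole array 57 as reported and 38 to 64. Genes at least 2-fold lower numbered 0 as reported, 1 with a floor at the 40th percentile, 1 with a pseudocount of 1 and 6 with centring on the hybridisation controls, where 44 were higher. That centring moved the log2 ratio of STING1 to -0.714 and of ZBP1 to -0.315, by the constant it subtracts. Over the other alternatives STING1 ran from -0.287 to -0.243 and ZBP1, where it was counted, from 0.087 to 0.142. ZBP1 had no value with the floor at the 60th percentile or with _x_at and _s_at probe sets removed. AIM2 had a value of -0.143 with a floor at the 40th percentile and of -0.405 with a pseudocount of 1, and CGAS and IFI16 had values only with pseudocounts, between -0.22 and -0.04. No paired analysis was possible because each condition has 1 array. The number of arrays limits the precision, as does the dim signal of 9 of the 11 member probe sets, which lay under the floor on both arrays.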

Other observations

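Exactly equal values on both arrays were recorded for 2361 of the 54613 probe sets other than controls. None of the 11 DNA-sensing probe sets was among them, which with so few probe sets is no trait of the members. The readings used for MRE11, LRRC8C, IKBKB and IL18 were tied. How these ties arose was not tested.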
